A study of Homo sapiens with 30 samples.

Results

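The genes described here encode the proteins of the cytosolic ribosome. They were chosen by symbol: protein-coding rows of the count table with an RPL or RPS number, with at most an A, X or L suffix, plus RPLP0, RPLP1, RPLP2 and RPSA, and no pseudogenes. This gave 84 genes of the 60675 in the table, of which 43 encode large subunit proteins, 31 small subunit proteins, 3 the stalk proteins and 7 paralogues of other members. RPL14 was singled out from them with earlier results of these data known, so its levels are given as a description.

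The RNA came from the human astrocytoma line SW1783, exposed for 24 h to a herbal extract or to vehicle. Water extracts of the Korean formulas Palmul-tang and Sibjeondaebo-tang were given at 20, 100 and 500 µg/mL, with 3 libraries per dose. Samul-tang (water extract), Poria Cocos (70% ethanol extract) and Atractylodis Rhizoma (70% ethanol extract) were given at the same doses, with 1 library per dose, and the vehicle, 0.1% DMSO, had 3 libraries, which makes 30 libraries in 16 groups. The vehicle share is the one in the sample labels, whereas the series' design text gives 2% DMSO. The labels give no DMSO share for the extract libraries. In every comparison with vehicle a difference in solvent therefore cannot be told apart from the extract. Nothing in the labels says that replicates were separate cultures, so a p-value here reflects the spread among libraries, which may be technical. The labels put all 30 libraries in batch C, but the sample codes of the vehicle libraries come from a set (C1) that no extract library shares, so in every comparison with vehicle the extract cannot be told apart from the handling of that set. Palmul-tang and Sibjeondaebo-tang libraries share their code sets at every dose.

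Total counts lay between 22568800 and 37822300 per library, and genes encoded in mitochondria took 6.43% to 7.67% of them. Of 10 astrocyte and glial markers, GFAP, S100B, AQP4, ALDH1L1 and SLC1A2 were near 0, at no more than 0.14, 0.18, 0.12, 0.072 and 0.52 CPM (counts scaled to library size) in any library. GJA1 (228 to 264 CPM), SLC1A3 (20.6 to 28.0 CPM), VIM (4388 to 5671 CPM), SOX9 (59.9 to 84.0 CPM) and NES (5.25 to 8.11 CPM) were detected in all. The cells are named by their line below. Replicate 3 of Sibjeondaebo-tang at 500 µg/mL stood apart from the other replicates of that group over all genes. Its chi-square per gene was 7.53 and 6.85 against replicates 1 and 2, which differed from each other by 2.52. At 100 µg/mL of Sibjeondaebo-tang replicates 1 and 2 also differed, by 6.19, beside 3.91 and 3.54 for the other pairs of that group.

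Each mature ribosome holds a single copy of nearly every one of these proteins, and cells make them in matched amounts. Much of their joint control happens at translation. Vertebrate ribosomal protein mRNAs start with a cytosine followed by a run of pyrimidines, the 5′ terminal oligopyrimidine (TOP) motif. Through it mTOR and LARP1 control how well these mRNAs are translated. mRNA abundance, which is what was measured here, is only one step of that control. The RefSeq start sites (GRCh38.p14) of members that the comparisons below name are shown first, because they let this motif be seen: 15 bases before the start and 15 from it, 5′ to 3′ on the gene's strand, with the pyrimidine run from the start in capitals.
RPL14 (chr3:40457324-40457353, plus strand): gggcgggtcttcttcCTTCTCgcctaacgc
RPL13A (chr19:49487593-49487622, plus strand): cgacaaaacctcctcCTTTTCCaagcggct
RPL29 (chr3:51995881-51995910, minus strand): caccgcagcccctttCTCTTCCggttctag
RPS14 (chr5:150449725-150449754, minus strand): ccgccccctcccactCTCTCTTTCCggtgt
RPS16 (chr19:39435935-39435964, minus strand): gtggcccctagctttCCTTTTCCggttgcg
RPL11 (chr1:23691791-23691820, plus strand): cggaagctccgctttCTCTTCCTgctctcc
RPS27A (chr2:55232673-55232702, plus strand): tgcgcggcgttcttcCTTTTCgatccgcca
RPL22L1 (chr3:170870181-170870210, minus strand): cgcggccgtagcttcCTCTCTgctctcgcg
RPL11 and RPS27A have further RefSeq starts that do not open with such a run. A start site was listed for 67 of the 84 members, and 47 of the 67 (70.1%) had a C at the start followed by 4 further pyrimidines (C or T) on the gene's strand, against 5.14% of the 27305 gene symbols in the same table.

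Together the 84 members took 3.60% to 4.01% of all counts. Their share was 3.60% to 4.00% in the 27 extract libraries, with a median of 3.75%, and 3.91%, 4.01% and 3.82% in the vehicle libraries, so the ranges overlapped. Their 1144 pseudogenes took 0.072% to 0.085%. In bulk RNA, fewer cells and less RNA per cell cannot be told apart, and every level here is relative to the other RNAs of the same library.

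The members differed widely in level when set per length. RPS2, a small subunit protein that lines the mRNA entry, was the highest at 1761 CPM per kb of transcript, averaged over the 30 libraries, ahead of RPS18 at 1311 CPM per kb. RPSA, the small subunit protein also called the laminin receptor, had 853 CPM per kb, and RPLP0, the base of the stalk that recruits elongation factors, had 681 CPM per kb. RPL14 was in 61st place of the 84 at 372 CPM per kb. The paralogues RPL22L1, RPL39L and RPL26L1 were far lower, at 9.22, 14.3 and 40.6 CPM per kb. The paralogues RPL10L and RPL3L, restricted in the body mainly to testis and to striated muscle, had at most 0.072 and 0.358 CPM in any library, did not pass the filter on low counts and were not tested, which left 82 members.

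RPL14 (ENSG00000188846, chr3:40457292-40468587, plus strand, GRCh38) encodes a protein on the surface of the large subunit. It had 437.5, 436 and 429 CPM in the vehicle libraries. In Palmul-tang it had 342, 332 and 339 CPM at 20 µg/mL, 336, 324 and 325 CPM at 100 µg/mL, and 327, 331 and 326 CPM at 500 µg/mL. In Sibjeondaebo-tang it had 321, 339.8 and 325 CPM at 20 µg/mL, 314, 337 and 326 CPM at 100 µg/mL, and 333, 342 and 339 CPM at 500 µg/mL. All of these extract libraries lay below all 3 vehicle libraries. The doses of Sibjeondaebo-tang overlapped, and in Palmul-tang the libraries at 500 µg/mL lay below those at 20 µg/mL, with 100 µg/mL overlapping both.

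In the extracts with 1 library a dose, RPL14 was also below the vehicle range. At 20, 100 and 500 µg/mL, it had 317, 350.4 and 316 CPM in Samul-tang, 339, 331 and 315 CPM in Poria Cocos, and 339, 329.6 and 332 CPM in Atractylodis Rhizoma. Over all 27 extract libraries its level ran from 314 to 350.4 CPM around a median of 331 CPM, against a vehicle range of 429 to 437.5 CPM. Among the replicated groups the order of the means was Vehicle at 434 ± 4.49, Sibjeondaebo-tang 500 at 338 ± 4.48, Palmul-tang 20 at 338 ± 5.31, Sibjeondaebo-tang 20 at 329 ± 10.0, Palmul-tang 100 at 328 ± 6.66, Palmul-tang 500 at 328 ± 2.62 and Sibjeondaebo-tang 100 at 326 ± 11.8 CPM (SD, n = 3 each). The step below Vehicle was larger than the SDs of its neighbours, and every other neighbouring pair in that order differed by less than the larger of its 2 SDs.

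**Figure D1:**
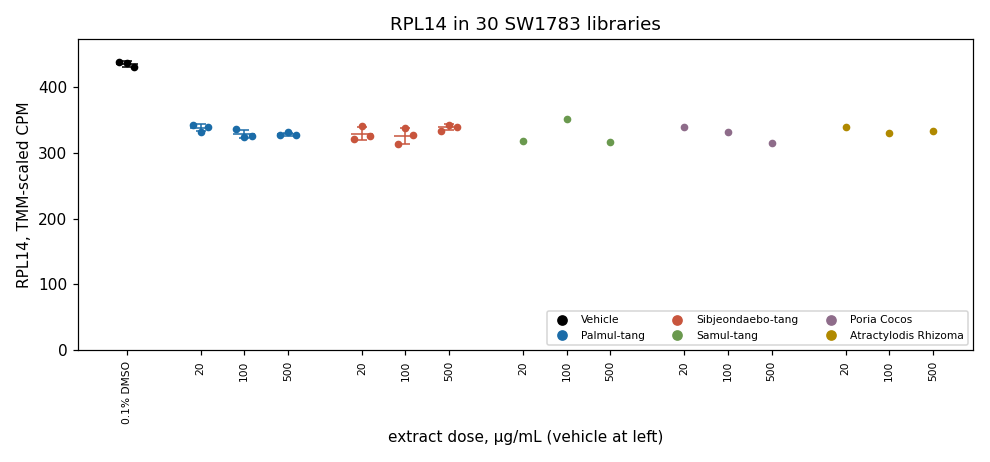
RPL14 in each library (points), in CPM scaled by the trimmed mean of M values, with the mean and SD of the groups of 3 (bars), against extract dose in µg/mL with the vehicle at the left. The 27 extract libraries sit between 314 and 350.4 CPM at every dose of every extract, and the 3 vehicle libraries between 429 and 437.5 CPM.

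On the log2 scale RPL14 differed from vehicle by -0.36 ± 0.032 (SE) at 20, -0.40 at 100 and -0.41 at 500 µg/mL of Palmul-tang, and by -0.40, -0.42 and -0.36 at the same doses of Sibjeondaebo-tang. These 6 differences share the vehicle libraries. The means of the 3 doses of Samul-tang, Poria Cocos and Atractylodis Rhizoma differed from vehicle by -0.41, -0.40 and -0.38. Between doses, where the code sets are shared, RPL14 did not pass the test: 500 over 20 µg/mL was -0.04 in Palmul-tang (adjusted p = 0.56) and 0.04 in Sibjeondaebo-tang (adjusted p = 0.559). These and all later p-values come from the quasi-likelihood test of edgeR, adjusted by Benjamini-Hochberg over the 17839 genes tested.

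Set against vehicle, ribosomal protein genes were more often lower than higher. With Palmul-tang at 500 µg/mL, 42 of the 82 members were lower than in vehicle (51.2%, against 14.9% of all genes tested) and 3 were higher (3.66%, against 12.9%), while 37 did not pass. Their median log2 fold change was -0.13, beside 0.001 over all genes, a median change in level of -8.83%. With Sibjeondaebo-tang at 500 µg/mL, 36 were lower (43.9%, against 13.3%) and 3 higher (3.66%, against 11.7%), with 43 not called and a median of -0.12. Without replicate 3 of that group, which stood apart, 36 were lower and 4 higher. With each of the 6 libraries compared left out in turn, 27 to 40 members were called in Sibjeondaebo-tang. In Palmul-tang the same gave 35 to 44. The members that passed in the lower direction spanned -0.47 to -0.08 in Palmul-tang and -0.39 to -0.08 in Sibjeondaebo-tang, so no member reached a change of 1 on the log2 scale.

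RPL13A, a large subunit protein also known as part of an interferon-induced translational silencer, was the lowest member by fold in both. It had 695, 735 and 744 CPM in Palmul-tang at 500 µg/mL and 741, 727 and 829.6 CPM in Sibjeondaebo-tang at 500 µg/mL, against 1009, 955 and 1039 CPM in vehicle. The extract libraries lay below the vehicle libraries, by -0.47 ± 0.041 in Palmul-tang (SE, adjusted p = 2.00e-10) and -0.39 ± 0.041 in Sibjeondaebo-tang (adjusted p = 1.02e-08).

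RPL29, a small basic protein of the large subunit, had 354, 341 and 364 CPM in Palmul-tang and 366, 357 and 406 CPM in Sibjeondaebo-tang at 500 µg/mL, against 471, 495 and 469.9 CPM in vehicle. None of these extract libraries reached the vehicle range, and the log2 fold changes were -0.44 and -0.35 (adjusted p = 4.14e-06 and 7.80e-05). RPS14, the small subunit gene whose loss underlies the anaemia of a myelodysplastic syndrome, was at -0.38 and -0.35. RPL11, which can bind and restrain MDM2 when free of the ribosome, was at -0.34 in both, and RPS16, whose tail reaches the tRNA in the P site, was at -0.34 and -0.27. RPL24, which bridges the subunits, was at -0.36 and -0.27, and all 4 passed in both formulas.

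Among the other members lower at 500 µg/mL, Palmul-tang had RPL37 at -0.34 and RPL36A at -0.33, and Sibjeondaebo-tang had RPS26, a Diamond-Blackfan anaemia gene, at -0.33, RPL28 at -0.30 and RPS15 at -0.26. RPS28 was called in Palmul-tang at -0.36 with a wide error (SE 0.126, adjusted p = 0.047): it had 233, 237 and 264 CPM at 500 µg/mL, against 358, 280.2 and 303 CPM in vehicle, without overlap. Its call was lost without vehicle replicate 1 or 3 or without any of the 3 Palmul-tang libraries, with an adjusted p of 0.0534 to 0.198. RPL36A missed the threshold without vehicle replicate 1 or 2 (adjusted p = 0.0507 and 0.0584).

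The 3 members that were higher were the same named genes in both formulas at 500 µg/mL: RPS27A, RPL22L1 and RPS3A. RPS27A, which is made as a fusion with ubiquitin and is one source of the cell's ubiquitin, had 261, 275 and 269.8 CPM in Palmul-tang and 264, 269 and 271 CPM in Sibjeondaebo-tang, against 188, 225 and 191 CPM in vehicle. The extract libraries lay above the vehicle libraries, by 0.42 ± 0.082 (SE, adjusted p = 0.0012) and 0.41 ± 0.081 (adjusted p = 0.0014). RPL22L1, the paralogue of the large subunit protein RPL22, had 19.8, 20.7 and 20.4 CPM in Palmul-tang and 21.6, 19.8 and 18.3 CPM in Sibjeondaebo-tang, against 15.7, 17.1 and 16.5 CPM in vehicle, a log2 fold change of 0.31 and 0.28. RPS3A, a small subunit protein, was at 0.17 and 0.15, and its call in Sibjeondaebo-tang was lost without vehicle replicate 3 (adjusted p = 0.0626).

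**Figure D2:**
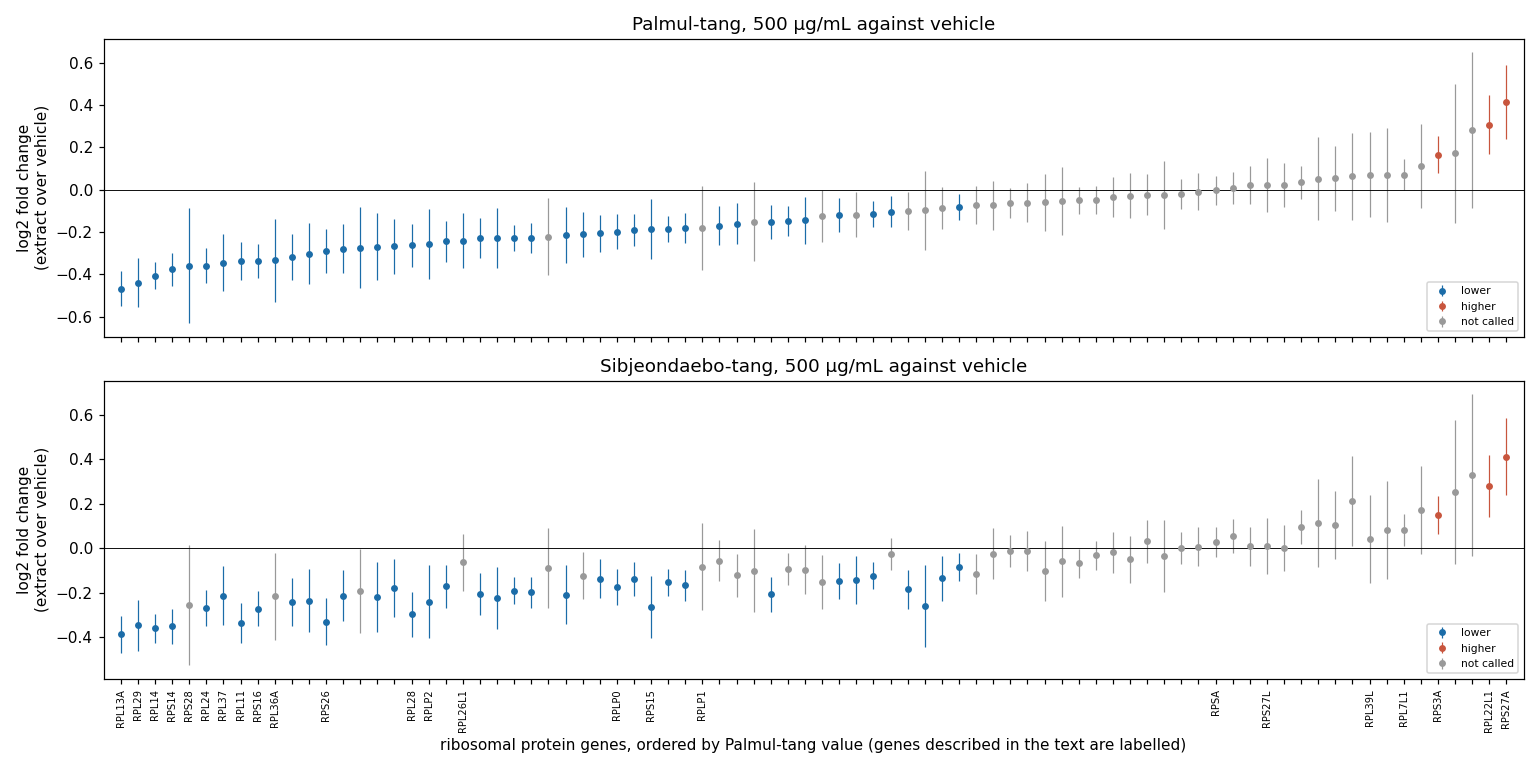
Log2 fold change over vehicle, with its 95% interval, of the 82 tested members at 500 µg/mL of Palmul-tang (top) and Sibjeondaebo-tang (bottom), both ordered by the Palmul-tang value and coloured by whether the gene passed. In Palmul-tang the values run from RPL13A at -0.47 to RPS27A at 0.42, with most below 0, and both panels share the 3 vehicle libraries.

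At the other doses more members were called lower than higher, and 41 to 47 of the 82 were not called. At 20 µg/mL of Palmul-tang 29 members were lower (35.4%, against 13.3% of all genes) and 8 higher (9.76%, against 10.5%), with a median of -0.09, and at 100 µg/mL 35 were lower (against 12.8% of all genes) and 6 higher (against 10.2%), with a median of -0.10. At 20 µg/mL of Sibjeondaebo-tang 36 were lower (against 13.3%) and 5 higher (against 10.5%), with a median of -0.13, and at 100 µg/mL 29 were lower (against 13.3%) and 6 higher (against 11.3%), with a median of -0.10. RPL13A was at -0.38, -0.37 and -0.47 at 20, 100 and 500 µg/mL of Palmul-tang, and at -0.39, -0.37 and -0.39 at these doses of Sibjeondaebo-tang. RPS27A was at 0.52, 0.47 and 0.42 in Palmul-tang, and at 0.44, 0.47 and 0.41 in Sibjeondaebo-tang. Members called higher at 20 µg/mL of Palmul-tang included RPS12 at 0.35, RPL39, which lines the exit tunnel, at 0.29, and RPS27L, a paralogue of RPS27 known as a p53 target, at 0.24. The RPS12 call was lost without replicate 3 at 20 µg/mL or without vehicle replicate 1 or 3 (adjusted p = 0.0508 to 0.0666), and the RPL39 call without replicate 1 or 3 at 20 µg/mL or the same vehicle libraries (adjusted p = 0.0682 to 0.146).

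The extracts with 1 library a dose gave counts of the same order when the mean of their 3 doses was set against vehicle. Samul-tang had 32 members lower (against 15.7% of all genes) and 8 higher (against 12.0%), with a median of -0.09. Poria Cocos had 30 lower (against 15.3%) and 6 higher (against 12.1%), and Atractylodis Rhizoma had 32 lower (against 15.3%) and 8 higher (against 12.4%), each with a median of -0.11. The members furthest below vehicle were RPL13A, RPS28 and RPL14 in Samul-tang, RPL14, RPL13A and RPL29 in Poria Cocos, and RPL29, RPL13A and RPL14 in Atractylodis Rhizoma. The RPS28 call was lost without Samul-tang at 20 µg/mL or vehicle replicate 1 (adjusted p = 0.112 and 0.11). RPS27A was the furthest above in each, at 0.57, 0.49 and 0.50, followed among the called members by RPL22L1 at 0.40, 0.40 and 0.30. In these tests a single dose is assumed to vary like the replicated groups.

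Over all 27 extract libraries, 20 of the 82 members (24.4%) lay below all 3 vehicle libraries in every one, against 7.44% of all genes tested. They included RPL3, RPL8, RPL11, RPL13A, RPL14, RPL15, RPL24, RPL28, RPL29, RPL32, RPL37, RPLP0, RPS2, RPS6, RPS9, RPS14, RPS16 and RPS26. RPS2, the member with the highest level, had 1613 to 1804 CPM in the extract libraries, against 1927 to 2011 CPM in vehicle. RPS6, the substrate of the S6 kinases, had 953 to 1037 CPM, against 1081 to 1115 CPM in vehicle. The 3 members with every extract library above vehicle (3.66%, against 5.33% of all genes) were RPS27A, RPL22L1 and RPS3A, and the other 59 overlapped. Starts with the TOP motif were listed for 11 of the 15 members with an entry among the 20, for 3 of 3 among those above and for 33 of 48 among the overlapping.

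**Figure D3:**
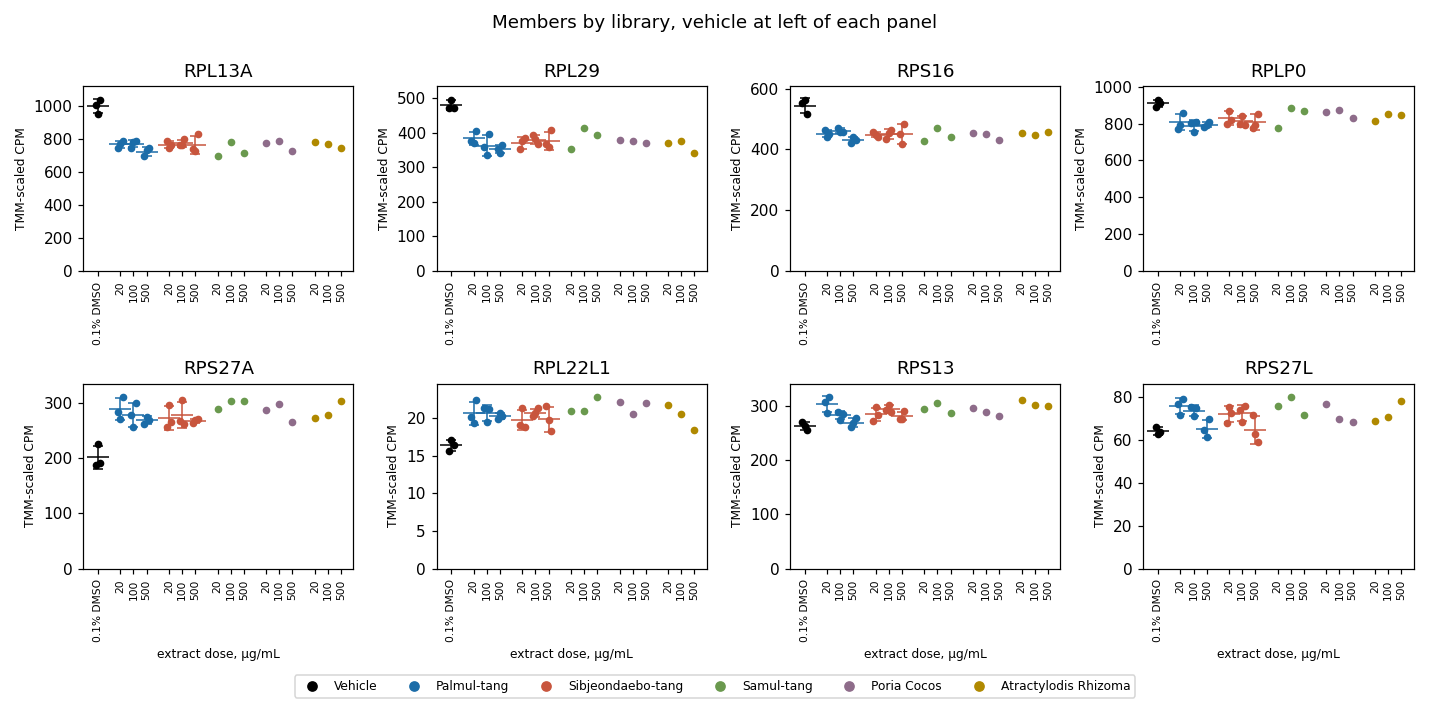
CPM of 8 members in each library (points) with mean and SD for groups of 3 (bars), against extract dose in µg/mL with the vehicle at the left of each panel. RPL13A, RPL29, RPS16 and RPLP0 lie below vehicle in every extract library, RPS27A and RPL22L1 lie above it, and RPS13 and RPS27L overlap it and decline from 20 to 500 µg/mL of Palmul-tang.

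By place in the ribosome, both subunits held lower members. At 500 µg/mL of Palmul-tang, 25 of 43 large subunit genes were lower and none higher (median -0.14), and 14 of 31 small subunit genes were lower and 2 higher (median -0.12), against 14.9% of all genes lower and 12.9% higher. At 500 µg/mL of Sibjeondaebo-tang the large subunit had 23 lower and 0 higher (median -0.14), and the small subunit 11 lower and 2 higher (median -0.10), against 13.3% and 11.7% of all genes. The difference between the subunits was not tested.

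The stalk was mostly lower. RPLP0 had 781, 793 and 809 CPM in Palmul-tang and 774, 795 and 855 CPM in Sibjeondaebo-tang at 500 µg/mL, against 892, 930.3 and 911 CPM in vehicle, so that no extract library reached the vehicle range (log2 fold changes -0.20 and -0.17, adjusted p = 0.00029 and 0.00135). RPLP2, an acidic protein at the stalk's tip, passed at -0.26 and -0.24. RPLP1, the other acidic protein, was at -0.18 and -0.08 and did not pass (adjusted p = 0.181 and 0.583). RPSA, at -0.003 and 0.030 with an SE of 0.033, did not pass either, and its 95% intervals lay between -0.07 and 0.10.

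Of the 5 paralogues tested, RPL22L1 was higher in both formulas at 500 µg/mL, and RPL26L1 was lower in Palmul-tang at -0.24 (adjusted p = 0.0049) and at -0.06 in Sibjeondaebo-tang (adjusted p = 0.518). RPL7L1, a nucleolar relative of RPL7, was at 0.07 and 0.08, RPL39L at 0.07 and 0.04, and RPS27L at 0.02 and 0.01, and none of these 3 passed.

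The size of a member's difference from vehicle moved with the base composition of its transcript. Over the 82 members the log2 fold change at 500 µg/mL correlated with transcript GC content. Pearson r was -0.41 in Palmul-tang and -0.46 in Sibjeondaebo-tang, and over 17708 genes it was -0.17 and -0.14. The rank correlations (Spearman) were -0.44 and -0.53 over the members and -0.33 and -0.27 over the 17708 genes. Over those genes the rank correlation was between -0.39 and -0.27 in every comparison with vehicle, so the trend was not limited to the members. Across the 9 comparisons with vehicle, which share those libraries, the members that were lower had a median GC content of 51.9% to 54.6% and those that were higher 43.7% to 45.8%. RPL14, at 49.6% GC, was near the middle of the members. With a trend of GC content and length removed over all genes, 32 members were lower (against 14.7% of all genes in that fit) and 3 higher (against 10.4%) at 500 µg/mL of Palmul-tang, and 26 lower (against 13.9%) and 5 higher (against 10.6%) at 500 µg/mL of Sibjeondaebo-tang. The 20 µg/mL Sibjeondaebo-tang comparison moved most, with 22 lower (against 13.1% of all genes) and 5 higher (against 8.06%), where 36 and 5 were called before that removal. Between doses, r was 0.43 at 500 over 20 µg/mL of Palmul-tang and -0.01 in Sibjeondaebo-tang. The part of base composition in the remaining differences was not tested.

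**Figure D4:**
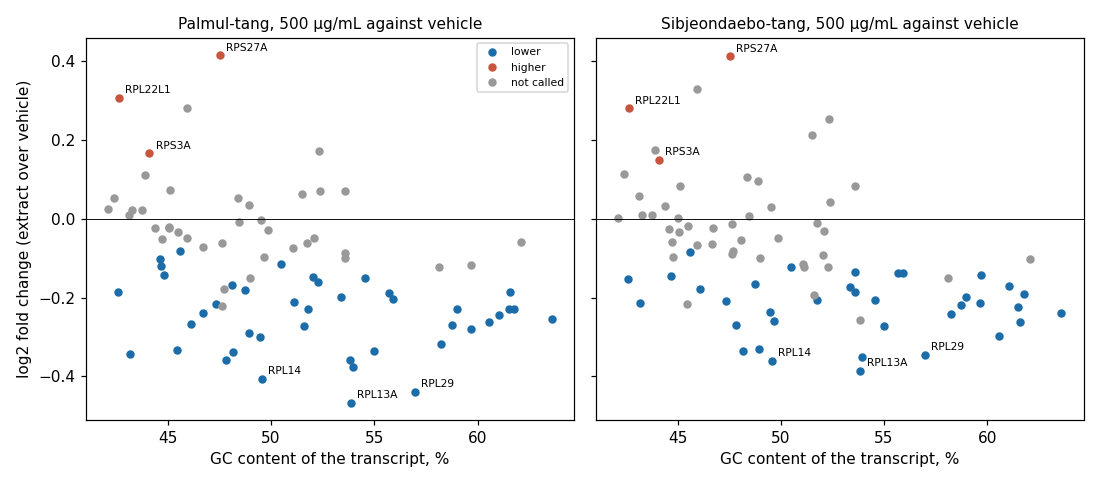
Log2 fold change over vehicle at 500 µg/mL of Palmul-tang (left) and Sibjeondaebo-tang (right) of the 82 members against the GC content of their transcripts in percent, coloured by whether the gene passed. Members called lower spread from 42.6% to 63.6% GC, and the 3 called higher lie at 42.6% to 47.5% GC.

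Read assignment limits single members. Ribosomal protein genes have many processed pseudogenes that resemble their mRNAs, and 45 of the 84 members had counts that were not whole in over 50% of libraries, as happens when reads are shared between loci. RPL14 has 3 pseudogenes in the table, whose counts came to 2.43% of its own, and RPS3A has 38, at 3.74%. Exons of 30 members overlap a gene on the opposite strand, among them RPS27A with CLHC1, and the sources used here do not say whether counting used strand. RPL36A also shares exons with the read-through gene RPL36A-HNRNPH2.

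Between doses of one formula the members moved little, and here all groups share code sets. In Palmul-tang at 500 over 20 µg/mL, 3 of 82 members fell (3.66%, against 2.47% of all genes) and 0 rose (against 2.83%), a share near that of all genes. The median was -0.07, beside -0.001 over all genes, 70 of the 82 values were below 0, and 21 (25.6%, against 16.4% of all genes) had an unadjusted p under 0.05. RPS13 had 262, 269 and 279 CPM at 500 µg/mL, against 308, 288 and 317 CPM at 20 µg/mL. The doses did not overlap, and the gene fell by 0.17 ± 0.038 on the log2 scale (SE, adjusted p = 0.0033). RPS27L had 64.5, 61.0 and 69.4 CPM at 500 µg/mL, against 76.6, 71.5 and 78.7 CPM at 20 µg/mL, again without overlap, and fell by 0.22 ± 0.060 (adjusted p = 0.033). RPL27A had 427, 500.0 and 508 CPM, against 550.3, 515 and 535 CPM, and fell by 0.16 ± 0.044 (adjusted p = 0.031), with replicate 1 at 500 µg/mL well below the other 2. The count rested on single libraries: it was 0 without replicate 3 at 20 µg/mL, 1 without replicate 1 of either dose, 2 without replicate 2 at 500 µg/mL, 4 without replicate 3 at 500 µg/mL and 8 without replicate 2 at 20 µg/mL, and DESeq2 called 8. Of the 3, RPS13 missed the threshold only without replicate 3 at 20 µg/mL (adjusted p = 0.0505), RPL27A without replicate 1 at 500 or replicate 1 or 3 at 20 µg/mL (0.0978 to 0.304), and RPS27L without replicate 1 or 2 at 500 or replicate 1 or 3 at 20 µg/mL (0.124 to 0.174). RPS12 had the largest difference of any member, -0.29, and did not pass (adjusted p = 0.109).

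In Sibjeondaebo-tang at 500 over 20 µg/mL no member passed in edgeR or DESeq2, 5 (6.1%, against 17.2% of all genes) had an unadjusted p under 0.05, and 2.79% of all genes fell and 3.45% rose. The median was 0.006, with values from -0.16 to 0.14. RPS27L, the lowest, had 71.6, 62.7 and 58.9 CPM at 500 µg/mL, against 67.8, 75.3 and 72.5 CPM at 20 µg/mL, and was at -0.16 (adjusted p = 0.145). The 95% intervals had a median half-width of 0.10. Without replicate 1 at 500 µg/mL, 1 member was called.

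Sibjeondaebo-tang and Palmul-tang were also compared directly. With the 3 doses averaged, no member passed (0 by edgeR and by DESeq2, 1 at an unadjusted p under 0.05, which is 1.22% against 4.26% of all genes; 0.00561% of all genes lower and none higher), with values from -0.07 to 0.11 and a median half-width of the 95% interval of 0.06. The change from 20 to 500 µg/mL was -0.07 in the median in Palmul-tang and 0.006 in Sibjeondaebo-tang. The difference of those changes, Sibjeondaebo-tang minus Palmul-tang, had a median of 0.08 and was above 0 for 69 members. None passed by either tool (no gene of all tested did), and 11 (13.4%, against 4.01% of all genes) had an unadjusted p under 0.05, led by RPL26L1 at 0.31 ± 0.090 (SE, adjusted p = 0.939). For RPL14 it was 0.09 ± 0.045. At 100 over 20 µg/mL no member passed in either formula by either tool, with 2 (2.44%, against 4.36% of all genes) and 1 (1.22%, against 5.4%) at an unadjusted p under 0.05 in Palmul-tang and Sibjeondaebo-tang and medians of -0.04 and 0.02; the shares of all genes called higher and lower were 0.146% and 0.0168% for Palmul-tang, beside 0.185% and 0.0224% for Sibjeondaebo-tang.

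**Figure D5:**
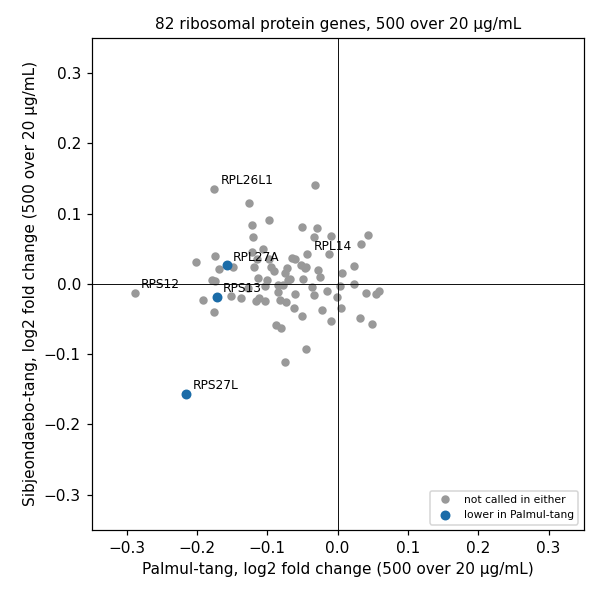
Log2 fold change of 500 over 20 µg/mL of the 82 members in Palmul-tang (x axis) and Sibjeondaebo-tang (y axis), with the 3 members called in Palmul-tang in blue. Most points lie left of 0, with a Palmul-tang median of -0.07, and spread around 0 on the y axis, with a Sibjeondaebo-tang median of 0.006.

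Over the means of the 16 groups, the genes whose log2 levels were most like that of RPL14 were 2 members, RPS16 (Pearson r = 0.96) and RPL13A (0.95), followed by SLC25A6, the ADP/ATP carrier (0.93), SLC25A1, the mitochondrial citrate carrier (0.93), BSG, a membrane glycoprotein (0.93), PRELID1, a mitochondrial lipid carrier (0.93), and TECR, an enzyme of fatty acid elongation (0.92). RPL11 (0.91), RPS14 (0.91) and RPL8 (0.90) were the next members. The median over the other members was 0.56, and over all 10295 genes ranked it was 0.046. The values were lower without the vehicle mean: over the 15 extract means alone RPS16 was at 0.78, RPL13A at 0.75 and BSG at 0.72, and the other 7 ran from 0.49 (TECR) to 0.63 (SLC25A6). These genes were picked on the 16 means. No median over other genes is given for the 15 extract means, so the medians above are no measure for these values.

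Other parts of the ribosome and its supply were read in the same way at 500 µg/mL against vehicle, with lists chosen with earlier results known. Beside the counts that follow, 14.9% of all genes were lower and 12.9% higher than vehicle in Palmul-tang, and 13.3% lower and 11.7% higher in Sibjeondaebo-tang. At 500 over 20 µg/mL, 2.47% were lower and 2.83% higher in Palmul-tang, and 2.79% lower and 3.45% higher in Sibjeondaebo-tang. Some ribosomal proteins fall outside the symbol rule. RPL36AL, a near copy of RPL36A, was lower at -0.24 in both (adjusted p = 0.0026 and 0.0028). RACK1, a scaffold on the small subunit, was at -0.10 and -0.08 and passed in Palmul-tang only, and FAU, a fusion of a ubiquitin-like protein with a small subunit protein, was at -0.17 and -0.22 and passed in Sibjeondaebo-tang only; neither difference between formulas was tested.

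Of 20 translation factors with TOP mRNAs, 12 were lower (against 14.9% of all genes) and 2 higher (against 12.9%) in Palmul-tang. In Sibjeondaebo-tang 10 were lower (against 13.3%) and 2 higher (against 11.7%), and the medians were -0.10 and -0.09. The list was limited to factors with that motif, so it does not describe translation factors in general. EIF4A2, an initiation helicase, was higher at 0.40 and 0.44, and EEF2, the translocase, was lower at -0.21 and -0.18. EEF1A1, which delivers aminoacyl-tRNA, was higher in Sibjeondaebo-tang at 0.16 against vehicle and rose by 0.10 at 500 over 20 µg/mL (adjusted p = 0.032). Of 50 ribosome biogenesis genes, 12 were lower and 4 higher in Palmul-tang, and 14 lower and 3 higher in Sibjeondaebo-tang. FBL, the rRNA methyltransferase, was at -0.28 and -0.31, and PES1, of the complex that matures the large subunit, at -0.32 and -0.28. Of these 50, 4 rose and none fell at 500 over 20 µg/mL of Sibjeondaebo-tang, UTP14A, DDX21, RRP12 and NOP16, and NOLC1 alone rose in Palmul-tang (against 3.45% and 2.83% of all genes higher).

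For the remaining lists, again against vehicle, 14.9% of all genes were lower and 12.9% higher in Palmul-tang. In Sibjeondaebo-tang 13.3% were lower and 11.7% higher. Whether a list departed from these shares was not tested. RNA polymerase I genes were called both ways, with 4 of 15 lower and 3 higher in Palmul-tang and 3 lower and 6 higher in Sibjeondaebo-tang. Of 21 genes of mTOR signalling and TOP control, 8 were lower and 1 higher in Palmul-tang and 5 lower and 1 higher in Sibjeondaebo-tang. The higher one was LARP4 at 0.30 and 0.25, and MLST8, a subunit of the mTOR complexes, was lower at -0.34 and -0.29. MYC, which drives ribosomal gene transcription, rose by 0.27 in Palmul-tang and 0.20 in Sibjeondaebo-tang at 500 over 20 µg/mL (adjusted p = 0.0016 and 0.020). Of the same list, DDIT4 fell by 0.27 in Palmul-tang, and SESN3 and TSC1 fell by 0.38 and 0.14 in Sibjeondaebo-tang, and no other gene of it was called between these doses. Of 20 p53 targets, 4 were lower and 4 higher in Palmul-tang and 3 lower and 2 higher in Sibjeondaebo-tang. At 500 over 20 µg/mL 4 of the 20 rose in Palmul-tang, TNFRSF10B, FAS, AEN and CDKN1A, against 2.83% of all genes. In Sibjeondaebo-tang 3 rose, against 3.45% of all genes, and none of the 20 fell in either formula. Of 78 mitochondrial ribosomal protein genes, which make a separate ribosome, 24 were lower and 9 higher in Palmul-tang and 23 lower and 4 higher in Sibjeondaebo-tang (medians -0.06 and -0.08).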

How the data were processed

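The authors deposited a table of RSEM expected counts per gene, which need not be whole. Per the submitters' processing notes, FastQC 0.11.9, Trim Galore 0.6.5, STAR 2.7.3a and RSEM 1.3.3 were used with hg38; the annotation release, strand setting and filters are not given in the sources used here. Per the labels' protocols, libraries came from a directional kit, read as 100 bp pairs. Of 279 columns 30 were used, since 249 belong to none of these samples.

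The expected counts were rounded to whole numbers and tested with edgeR 4.0.16 in R 4.3.3: TMM scaling, filterByExpr, robust quasi-likelihood fit of all 30 libraries with 1 mean per group, Benjamini-Hochberg adjustment over the 17839 genes tested, threshold 0.05. CPM values are TMM-scaled. Intervals are 95%. Gene models, lengths and GC content came from GENCODE 29, which holds 57055 of the 60675 gene IDs. The shortest principal transcript was used where there was one. Levels per kb, GC content and the trend of GC content and length depend on that choice. The transcript taken was long for some members, such as RPL37 at 7686 bases and RPS27L at 6434 bases. Starts came from RefSeq. The script was tested on simulated data.

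Members and lists were chosen with earlier results of these data known, which already showed ribosomal protein genes lower than vehicle, so that direction is no independent support. Named genes are RPL14; in each replicated comparison up to 10 called members each way by fold; up to 3 each way for a single extract; paralogues, stalk proteins and RPSA; up to 4 called genes per other list by p; and the 5 members and 5 others most like RPL14. Other genes were named after their values were seen. The totals of 22568800 to 37822300 counts limit precision only for the lowest paralogues. Alternatives were DESeq2 1.42.0, other scalings, no filter, only the compared groups, a replicate block, pseudogene counts added, removal of a GC and length trend, thinning, and each library left out. A few results are not reported here.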

Additional observations from a re-analysis of the deposited data

How the results depend on the processing

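With each library left out in turn, the count of members called lay between 0 and 8 for Palmul-tang 500 over 20 µg/mL (3 as reported) and 0 and 1 for Sibjeondaebo-tang (0 as reported). The Palmul-tang count was 11 with no filter on low counts, 5 with the trend of GC content and length removed, with or without the replicate block, 7 with only the compared groups and 8 with DESeq2; the Sibjeondaebo-tang count was 1 with no filter. With that trend removed, Sibjeondaebo-tang at 20 µg/mL against vehicle had 27 members called, against 41. The other counts stayed within 1.5 times. The causes were not tested beyond what each alternative removes.

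Replicate numbers gave no clear pairing of the libraries: same-numbered correlations ran from -0.21 to 0.33, and in 0 of 21 pairs of groups were all 3 over 0.1. The same held in 0 of the 15 pairs of Palmul-tang and Sibjeondaebo-tang groups, which share code sets. A weaker sharing by code set can stay under that threshold and was not tested. The replicate block left 3 calls in Palmul-tang 500 over 20 µg/mL and 44 against vehicle (45 without it).

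RPL14 changed sign only where it was near 0. For Sibjeondaebo-tang 100 over 20 µg/mL (-0.013) it ran from -0.039 to 0.013 with a library left out. For Sibjeondaebo-tang over Palmul-tang (-0.0017) it ran from -0.011 to 0.0068 with a library left out, and was 0.0039 with no filter, 0.0028 with the trend removed and 0.0026 with trend and block. Of 118 named gene results, all 118 kept direction and call with DESeq2 and with pseudogenes added, 117 with DESeq2 size factors and 116 with TMM without these genes, 117 each with the replicate block and with thinning, 111 with no filter, 105 with the trend removed (107 with trend and block) and 93 of 100 with only the compared groups; with a library left out 644 of 726 did. Over all comparisons and alternatives, the median log2 fold change of all genes lay within 0.0122 of 0. Extracts with 1 library a dose were not fitted with only the compared groups.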
